A study of Mus musculus with 8 samples.

Results

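The RNA of biliary-differentiated hepatoblast cultures (iBECs) of mouse was compared between 1 control library and 2 libraries labelled as deficient in *Lats1* and *Lats2*, which are 3 of the 8 RNA sequencing libraries of the study. The hepatoblasts, the bipotent epithelial precursors of the fetal liver, were taken from E14.5 livers of mice on a B6;129 mixed background and plated on collagen. For iBECs they were then grown for 14 days on Matrigel, a basement membrane gel. The control was labelled wild type and the other libraries Lats1-/-;Lats2f/fl;Alb-cre (L1L2_Alb), in which *Lats1* is disrupted in every cell and Cre is driven by the albumin promoter, so that *Lats2* can be deleted only in cells of the hepatoblast and hepatocyte lineage, and other liver cells carried into the culture keep it. The remaining libraries, used here only for comparison, were of undifferentiated hepatoblasts (iHBs, 1 control and 1 L1L2_Alb) and of cells treated with 12.5 ng/ml oncostatin M, a cytokine that drives hepatocyte maturation, for 5 days per the labels (iHPs, 1 control and 2 L1L2_Alb), with the same genotypes.

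All 3 libraries labelled as iBECs were taken. A gene was measured when its mean over these libraries was at least 1 RPKM (reads scaled by gene length and library size), which left 13344 of 23467 genes. Genes under 1 RPKM in the control passed only through the L1L2_Alb libraries, and these genes could not be called lower. A gene was called higher or lower when both L1L2_Alb libraries differed from the control in that direction by at least 1 on the log2(RPKM + 1) scale, which gave 811 genes. As there was 1 control library, these calls are a description with no test, and differences are given as the mean of the L1L2_Alb libraries with their SD (n = 2), which does not include the error of the control. The 3 RPKM values of a gene are given in the order control, L1L2_Alb library 1, L1L2_Alb library 2. The labels do not say whether the L1L2_Alb libraries are from separate embryos or cultures, and their descriptions carry the same replicate number, so their spread may be technical.

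LATS1 and LATS2 are the kinases at the end of the Hippo pathway. They phosphorylate the coactivators YAP and TAZ, which keeps them out of the nucleus, and without this restraint YAP and TAZ bind TEAD factors and switch on genes of growth, matrix and cytoskeleton. In the fetal liver, hepatoblasts become hepatocytes, which secrete plasma proteins and carry out metabolism, or biliary epithelial cells, which line the bile ducts and express keratins 7 and 19, and YAP is known to favour the biliary fate.

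The libraries held 23841792 to 33229075 recovered reads. *Lats1* was at 5.38, 9.69 and 9.91 RPKM and *Lats2* at 6.90, 10.9 and 12.4 RPKM, so neither was lower in the libraries labelled L1L2_Alb, and a value summed over a whole gene cannot show whether an exon was deleted. The genotypes are therefore those of the labels. The control iBEC library was dominated by a few genes, its 10 most abundant taking 18.7% of all RPKM against 8.66% and 9.64% in the L1L2_Alb libraries. After the secreted matrix protein gene *Spp1*, with 23271, 6027 and 10760.0 RPKM, the next genes were of hepatocyte plasma proteins, beginning with the haem carrier *Hpx* and the iron carrier *Trf*. The 44 plasma protein genes examined summed to 152555 RPKM in the control, or 21.0% of all RPKM, and the 28 biliary markers to 24751 RPKM, most of it *Spp1*. The control culture thus expressed both sets, and "iBEC" is used here for the culture protocol and not as a cell type found in the data.

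Of the 13344 genes measured, 582 (4.36%) were higher and 229 (1.72%) were lower in both L1L2_Alb libraries, 6.08% in all. The median gene was also higher, by 0.25 on the log2 scale. After the libraries were scaled to a common upper quartile (percentile 75), which set this median to 0.0085, 395 genes (2.96%) were higher and 358 (2.68%) lower, so that the share of higher genes among those called went from 71.8% to 52.5%. All 395 were also higher as deposited and all 229 were also lower after scaling, while 187 genes were higher only as deposited and 129 lower only after scaling. The lower genes, although fewer, carried 27.2% of all RPKM in the control and 6.68% and 9.17% in the L1L2_Alb libraries. The higher genes went from 1.11% to 3.87% and 4.49%. In RNA of whole cultures, fewer cells of a type and less RNA per cell cannot be told apart. Both L1L2_Alb libraries differed from the control more than from each other, with a Pearson r across the measured genes of 0.962 between them and of 0.930 and 0.947 with the control. These genes are not independent replicates. The L1L2_Alb libraries themselves differed by at least 1 in 701 genes (5.25%), and 186 of the 229 lower genes were lowest in library 1. Taken singly, library 1 passed the threshold in 1599 genes and library 2 in 1338, 7 of them in opposite directions. Just inside the threshold lay the laminin chain *Lamc1*, with 34.0, 83.3 and 69.1 RPKM, and just outside it the growth factor receptor *Fgfr2*, with 1.38, 6.90 and 3.76 RPKM. On the other side the chemokine *Ccl12* lay just inside, with 13.5, 4.18 and 6.26 RPKM, and the lipid antigen receptor *Cd1d1* outside, with 16.3, 6.77 and 7.71 RPKM.

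**Figure D1:**
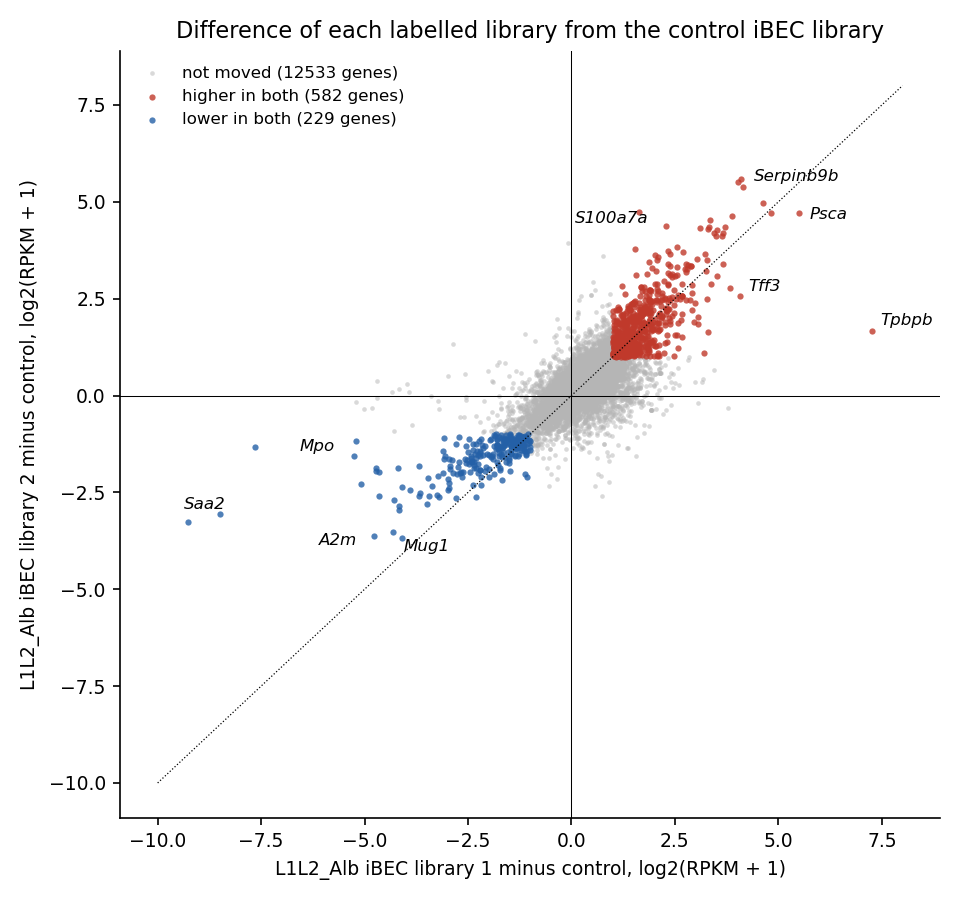
Each point is 1 of 13344 genes, with its log2(RPKM + 1) difference from the control iBEC library in L1L2_Alb library 1 (horizontal) and library 2 (vertical); the dotted line marks equal differences. The 582 genes higher in both and the 229 lower in both are coloured, and most of the lower genes lie above the dotted line, where library 1 is the lower one.

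Beside this description, a limma model of all 8 libraries, in which the spread came from the iBEC and iHP pairs of L1L2_Alb libraries (2 residual degrees of freedom) and the lone control was assumed to vary like them, called 11 genes (0.0824%) at an adjusted p under 0.05, and 1196 at an unadjusted p under 0.05. The 9 higher ones (0.0674% of the genes measured) were *Fgfbp1*, *Psca*, *Prap1*, *Serpinb9b*, *Slc39a8*, *4933401H06Rik*, *Epn3*, *Siglecg* and *Crct1*, and the 2 lower ones (0.015%) were *Mug1* and *Mug2*. The number depended on the settings, and no gene was called without a filter on low values or without either L1L2_Alb iHP library. A count of genes past the fold threshold is thus not a count of tested changes.

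The largest increases were of genes that the control culture hardly expressed. *Fgfbp1*, a secreted carrier that releases fibroblast growth factors from the matrix, was at 0.196, 32.6 and 30.6 RPKM, a log2 difference of 4.77 ± 0.062 (SD, n = 2) with an adjusted p from limma of 0.0191. *Psca*, a cell surface antigen of mucosal epithelia, was at 0.563, 69.3 and 40.1 RPKM, and its difference was 5.10 ± 0.55 (limma adjusted p = 0.0385). Both libraries lay far above the control for these genes. *Prap1*, a secreted protein of gut and liver epithelium, had 1, 402 and 469 reads, equal to 0.0484, 24.97 and 31.6 RPKM, so that its control level rests on a single read. *Serpinb9b*, a mouse granzyme inhibitor of the intracellular serpins, was the most abundant of the group, at 10.5, 204 and 477 RPKM (4.76 ± 0.86, SD, n = 2).

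*Slc39a8*, which imports zinc and manganese, was at 2.78, 55.0 and 92.1 RPKM, with a difference of 4.26 ± 0.52 (SD, n = 2). The RNA *4933401H06Rik*, at 1.28, 28.8 and 45.4 RPKM, lies within its span in RefSeq, and since no strand setting is stated the reads of these genes cannot be told apart. *Epn3*, an endocytic adaptor of epithelia, was at 1.94, 35.95 and 53.2 RPKM, and *Crct1*, a gene of the cornified epithelium cluster, at 1.85, 30.02 and 50.9 RPKM. In each of these, library 2 was above library 1 and both were above the control. *Siglecg*, a sialic acid receptor known from B cells, was at 1.56, 30.8 and 43.5 RPKM. *Cav1*, the main coat protein of caveolae, was at 5.82, 69.0 and 158 RPKM, and its difference of 3.95 ± 0.84 (SD, n = 2) missed the threshold (limma adjusted p = 0.0535).

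*Nxf3*, a member of the RNA export factor family, had 0, 1182 and 3187 reads. Against a floor of 3 reads in the control, it was at least 506 and 1481-fold higher in libraries 1 and 2, and the RNA *5730412P04Rik*, which lies in the same span in RefSeq, was also listed at 0 in the control, with 0, 16.1 and 47.4 RPKM in the 3 libraries. These folds rest on the lone iBEC control. *Nxf3* was at 56.0 RPKM in the iHB control and 43.2 RPKM in the L1L2_Alb iHB library. In iHPs its values were 12.9, 29.1 and 18.5 RPKM. *5730412P04Rik* was at 59.1 and 45.2 RPKM in the control and L1L2_Alb iHB libraries. *Krt6a*, a keratin of activated squamous epithelium, was at 0.267, 13.4 and 23.3 RPKM, and *Tff1*, a mucosal peptide of the trefoil family, at 2.33, 36.3 and 56.5 RPKM. *S100a14*, an epithelial calcium-binding protein, was at 0.0585, 12.3 and 10.05 RPKM. In iBECs the control was far below both L1L2_Alb libraries for each of these.

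**Figure D2:**
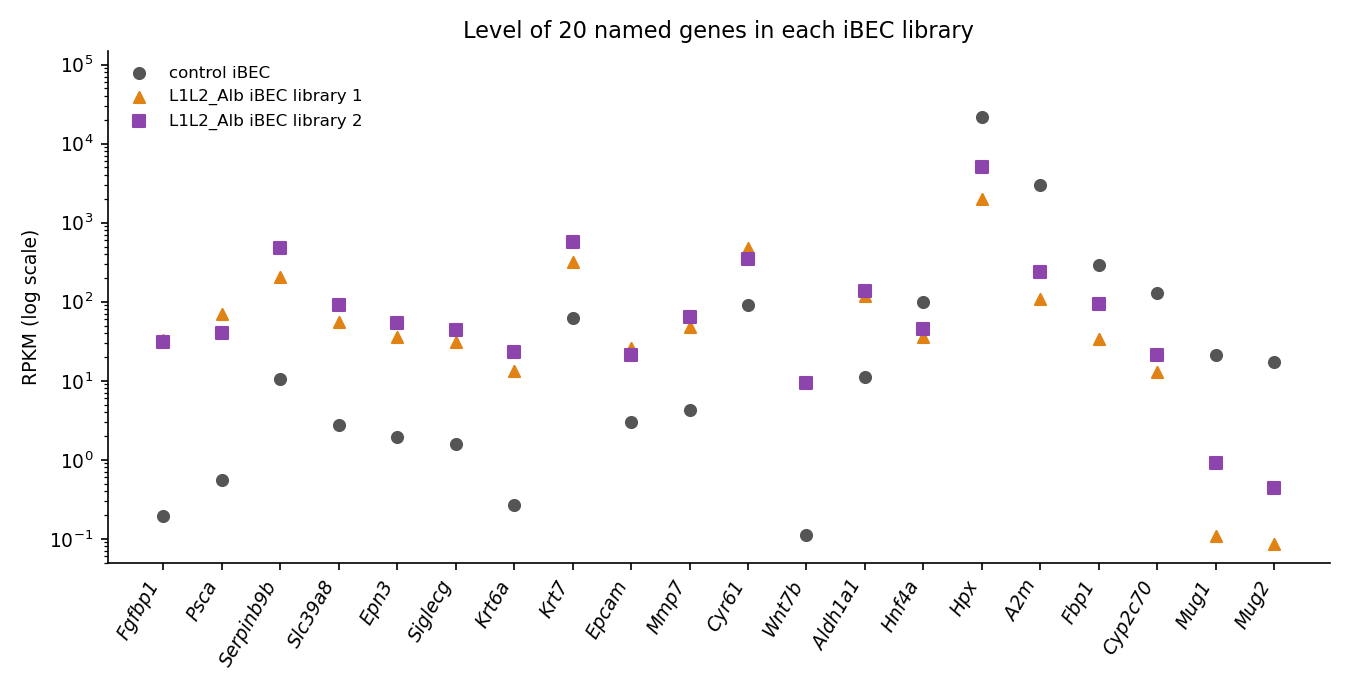
RPKM (log axis) of 20 named genes in the control iBEC library (circles) and L1L2_Alb libraries 1 (triangles) and 2 (squares), 1 point per library. The 13 genes on the left have the control as the lowest point and the 7 on the right, from *Hnf4a* to *Mug2*, as the highest.

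Of 22 genes listed as YAP/TAZ targets, all of them measured, 10 were higher and 1 was lower, against 4.36% and 1.72% of all genes. *Tgfb2*, 1 of the 10, was put forward as a YAP target by the study of these data itself, so it is not an independent member. It is also counted among the TGF-beta genes below. Their median difference was 1.09, or 0.82 after upper-quartile scaling with 7 higher, beside medians of 0.25 and 0.0085 over all genes. *F3*, tissue factor, which starts blood clotting, was at 8.69, 43.4 and 59.6 RPKM and had the largest difference of the list, 2.42 ± 0.32 (SD, n = 2). *Cyr61*, a matrix-associated signal protein, was at 91.4, 481 and 349 RPKM (2.15 ± 0.33). *Crim1*, a membrane protein that binds bone morphogenetic proteins, was at 9.06, 33.4 and 49.3 RPKM, and *Ptpn14*, a phosphatase that retains YAP in the cytoplasm, at 3.16, 12.7 and 14.2 RPKM. The L1L2_Alb libraries lay within 1.5 times of each other in each of these 4 genes, and all were above the control. *Amotl2*, which also binds and retains YAP, was at 35.4, 98.8 and 113 RPKM, and the ectonucleotidase *Nt5e* at 11.2, 34.7 and 34.2 RPKM. *Igfbp3*, a carrier of insulin-like growth factors, was the exception, at 485, 219.8 and 223 RPKM. The classical target *Ankrd1*, at 201, 494 and 296 RPKM, was past the threshold in library 1 only. No member passed the adjusted threshold in limma. For each list below, the shares over all genes were the same, 4.36% higher and 1.72% lower, or 2.96% and 2.68% after upper-quartile scaling.

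TEAD factors bind the core sequence GGAATG, which was searched on both strands. Of the 11 target genes that passed the threshold, 9 had a promoter in the RefSeq table (GRCm38.p6, 250 bases before to 50 after the start), and 4 of those held the core, as did 14.7% of the 32817 promoters of the whole table. They are shown, 5′ to 3′ on the strand of the gene and with the core in capitals (a match on the other strand appears as its reverse complement), so that the sites can be read against the values above. Their regions are chr1:189728018-189728317, plus strand for *Ptpn14*, chr3:145649936-145650235, minus strand for *Cyr61* (Ccn1 in RefSeq), chr9:102717554-102717853, plus strand for *Amotl2* and chr17:78199998-78200297, plus strand for *Crim1*.
Ptpn14: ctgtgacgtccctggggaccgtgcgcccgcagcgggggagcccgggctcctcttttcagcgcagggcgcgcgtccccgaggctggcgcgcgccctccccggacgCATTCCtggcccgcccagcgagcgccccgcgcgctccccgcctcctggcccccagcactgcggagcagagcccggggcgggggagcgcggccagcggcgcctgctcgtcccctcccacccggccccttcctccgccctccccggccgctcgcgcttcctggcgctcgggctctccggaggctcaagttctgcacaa
Cyr61: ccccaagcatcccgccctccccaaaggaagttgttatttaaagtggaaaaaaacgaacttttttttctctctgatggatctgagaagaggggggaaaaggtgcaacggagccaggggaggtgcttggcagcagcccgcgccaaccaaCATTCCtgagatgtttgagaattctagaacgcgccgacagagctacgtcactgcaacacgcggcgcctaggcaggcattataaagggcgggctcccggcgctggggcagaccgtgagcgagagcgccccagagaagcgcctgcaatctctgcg
Amotl2: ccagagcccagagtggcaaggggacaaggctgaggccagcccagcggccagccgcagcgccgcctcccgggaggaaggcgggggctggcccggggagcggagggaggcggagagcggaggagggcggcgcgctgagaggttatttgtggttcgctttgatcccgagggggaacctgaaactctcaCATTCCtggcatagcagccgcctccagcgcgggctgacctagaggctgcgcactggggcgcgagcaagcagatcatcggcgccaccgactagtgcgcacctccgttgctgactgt
Crim1: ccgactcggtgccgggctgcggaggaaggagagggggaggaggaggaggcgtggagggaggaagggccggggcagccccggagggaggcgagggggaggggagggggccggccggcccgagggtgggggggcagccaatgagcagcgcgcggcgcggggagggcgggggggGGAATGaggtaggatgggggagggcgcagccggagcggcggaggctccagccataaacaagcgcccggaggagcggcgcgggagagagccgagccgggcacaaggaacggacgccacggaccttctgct
The core began 146 bases before the start in *Ptpn14*, 103 in *Cyr61*, 65 in *Amotl2* and 79 in *Crim1*. A match is a string of letters and not a bound site, and no binding was measured here. The shares of promoters with each motif among the higher and the lower genes are not given, because promoters were found for only 71.3% of the higher and 70.7% of the lower genes, under the 80% set for such a check, which is void.

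Within the Hippo pathway itself, 4 of 18 genes were higher and none lower. *Tead1* was at 4.604, 12.9 and 13.2 RPKM and *Tead4* at 3.59, 8.19 and 10.9 RPKM, and the YAP-binding scaffolds *Amot* and *Wwc1* were at 2.89, 8.57 and 10.1 RPKM and 21.8, 48.6 and 64.2 RPKM. After upper-quartile scaling 2 remained past the threshold. *Yap1* was nearly equal in the 3 libraries, at 23.9, 24.4 and 24.6 RPKM. *Wwtr1*, which encodes TAZ, was at 9.21, 14.9 and 16.7 RPKM.

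Of 5 keratin genes higher among 9 measured, *Krt6a* is given above, and the keratin sum was 1076 RPKM in the control and 1980 and 3406 RPKM in libraries 1 and 2. Biliary markers split. Of 25 measured of 28, 9 were higher and 1 was lower, with a median of 0.92. *Tspan8*, a membrane protein of digestive epithelia, was at 18.8, 162 and 226 RPKM, a difference of 3.28 ± 0.34 (SD, n = 2). *Epcam*, the adhesion molecule of duct and progenitor cells, was at 2.96, 25.9 and 21.1 RPKM, and *Tff3*, a trefoil peptide of ducts, at 6.11, 119 and 41.6 RPKM. The L1L2_Alb libraries agreed closely for *Epcam*, while for *Tff3* library 1 was well above library 2. *Muc1*, an apical mucin, was at 2.79, 12.9 and 13.4 RPKM and the membrane protease *St14* at 3.18, 16.8 and 26.1 RPKM. In contrast *Spp1* was lower, with -1.53 ± 0.59 (SD, n = 2), and the ductal transcription factors did not follow the keratins. *Sox9* was at 13.3, 4.89 and 6.87 RPKM, below the control in both libraries and past the threshold in library 1 only, or in both after scaling, and *Sox4* was at 21.8, 7.48 and 14.0 RPKM. *Onecut1*, at 9.72, 8.90 and 6.74 RPKM, which acts in bile duct formation, was also below the control in both, by less than the threshold. The other 3, the secretin receptor Sctr, the chloride channel Cftr and the fibrocystin gene Pkhd1, which mark mature cholangiocytes, were not measured, being under 1 RPKM in all 3 libraries.

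Of 25 measured genes of epithelial junctions and polarity, 8 were higher (6 after scaling) and none lower, with a median of 0.74. The claudins *Cldn6* and *Cldn7*, which seal tight junctions, were at 1.08, 9.49 and 8.86 RPKM and 1.89, 16.2 and 16.5 RPKM, and both had L1L2_Alb values that nearly coincided. *Cgn*, the tight junction protein cingulin, was at 8.94, 43.5 and 48.2 RPKM, and the polarity genes *Pard6b* and *Crb3* were at 4.66, 20.1 and 24.8 RPKM and 3.23, 12.1 and 11.03 RPKM. *Grhl2*, a transcription factor that maintains epithelia, was at 0.395, 4.05 and 2.20 RPKM, and the epithelial splicing factor *Esrp1* at 0.14, 1.71 and 2.16 RPKM. Both were under 1 RPKM in the control and could not have been called lower, so the filter in part fixed this split. Not all junction genes were higher, as *Cldn1* was at 3.13, 1.06 and 1.49 RPKM and *Cldn2* at 31.2, 11.9 and 27.5 RPKM, neither past the threshold in both libraries.

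Of 29 genes of squamous and mucosal epithelium 11 were measured, and 5 of them were higher and none lower, with *Psca*, *Tff1* and *Krt6a* above. *Tff2* had 0, 28 and 174 reads, hence none in the control. *Psca*, *Krt6a* and *Tff2* were under 1 RPKM in the control and were measured only through the L1L2_Alb libraries. They could not have been called lower, so the filter in part fixed this split. *Ly6d*, a surface protein of stratified epithelium, went the other way, at 787, 261 and 398 RPKM, passing the threshold in library 1 only as deposited and in both after scaling. Of the 6 clade B serpins measured, 4 were higher (3 after scaling), with the protease inhibitors *Serpinb6b* at 17.0, 105 and 180.0 RPKM and *Serpinb9* at 2.84, 13.4 and 24.3 RPKM. These serpins are close paralogs, and their values may share reads. Of 21 S100 and annexin genes, 6 were higher, among them the membrane-binding *Anxa1*, at 439, 1668 and 1919 RPKM, and *Anxa3*, at 131, 421 and 487 RPKM, and the calcium-binding *S100a6*, at 893, 2420.2 and 4574 RPKM. *S100a8* and *S100a9* are neutrophil genes, and *S100a8*, at 1218, 42.1 and 979 RPKM, was far lower in library 1 only.

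The genes of cell attachment formed another group. Of 20 measured integrins and laminins, 8 were higher and none lower, and 5 remained after scaling. *Lamb3*, a chain of the epithelial laminin of hemidesmosomes, was at 0.723, 8.87 and 8.61 RPKM (2.50 ± 0.027, SD, n = 2). *Itgb4*, the integrin that anchors to this laminin, was at 1.69, 8.13 and 7.59 RPKM, and *Itgb6*, an epithelial integrin known to activate latent TGF-beta, at 0.522, 3.85 and 3.99 RPKM. The L1L2_Alb libraries were nearly equal for these 3 genes. *Lamb3* and *Itgb6* were under 1 RPKM in the control and could not have been called lower, so the filter in part fixed this split. Of 24 measured matrix proteases and inhibitors 6 were higher and none lower, or 3 and 1 after scaling. *Mmp7*, a protease of ductal and glandular epithelium, was at 4.28, 48.4 and 65.0 RPKM (3.43 ± 0.30), and *Plat*, the tissue plasminogen activator, at 42.5, 121 and 162 RPKM. Of 27 actin and contractile genes, 1 was higher, the calponin *Cnn3*, at 113, 237 and 255 RPKM, and it did not pass after scaling. This count is near the 4.36% of all genes called higher.

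Signalling genes were examined by pathway. Of 23 measured Wnt genes 5 were higher and none lower, and 3 were higher after scaling. The ligand *Wnt7b* was at 0.111, 9.62 and 9.40 RPKM (3.24 ± 0.021, SD, n = 2), with libraries 1 and 2 nearly equal, *Wnt7a* at 2.26, 6.48 and 12.9 RPKM, *Wnt10a* at 0.307, 1.89 and 2.37 RPKM and *Wnt9a* at 0.399, 1.87 and 3.35 RPKM. Of the Wnt feedback genes, *Nkd1* was higher, at 0.575, 2.28 and 2.24 RPKM. *Wnt7b*, *Wnt10a*, *Wnt9a* and *Nkd1* were under 1 RPKM in the control and were measured only through the L1L2_Alb libraries. They could not have been called lower, so the filter in large part fixed the split of this list. Of 27 TGF-beta pathway genes 3 were higher, the ligands *Tgfb2*, at 1.18, 4.39 and 3.93 RPKM, and *Bmp4*, at 1.15, 3.62 and 5.64 RPKM, and *Thbs1*, a matrix protein that activates latent TGF-beta, at 61.3, 132 and 240.0 RPKM, and none of the 3 remained after upper-quartile scaling. The receptor *Tgfbr1* was at 42.0, 18.2 and 22.9 RPKM, below the control in both libraries, past the threshold in library 1 only as deposited and in both after scaling. Of 13 Notch genes, 1 was higher, beside 4.36% of all genes. It was the ligand *Jag2*, at 0.69, 3.16 and 2.79 RPKM, which did not pass after scaling. *Jag1*, at 5.05, 4.40 and 4.30 RPKM, and the target *Hes1*, at 13.4, 11.9 and 14.0 RPKM, were close to the control in both libraries. The EGF receptor ligand *Hbegf* was at 9.16, 38.1 and 32.4 RPKM. *Ccl20*, a chemokine of mucosal epithelium, was at 0.226, 8.08 and 11.5 RPKM, and *Il1rl1*, the receptor of interleukin 33, at 0.712, 6.07 and 8.49 RPKM, while the neutrophil chemokine *Cxcl1* was at 75.1, 15.1 and 32.8 RPKM, lower in both libraries, and a further chemokine gene was lower after scaling.

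**Figure D3:**
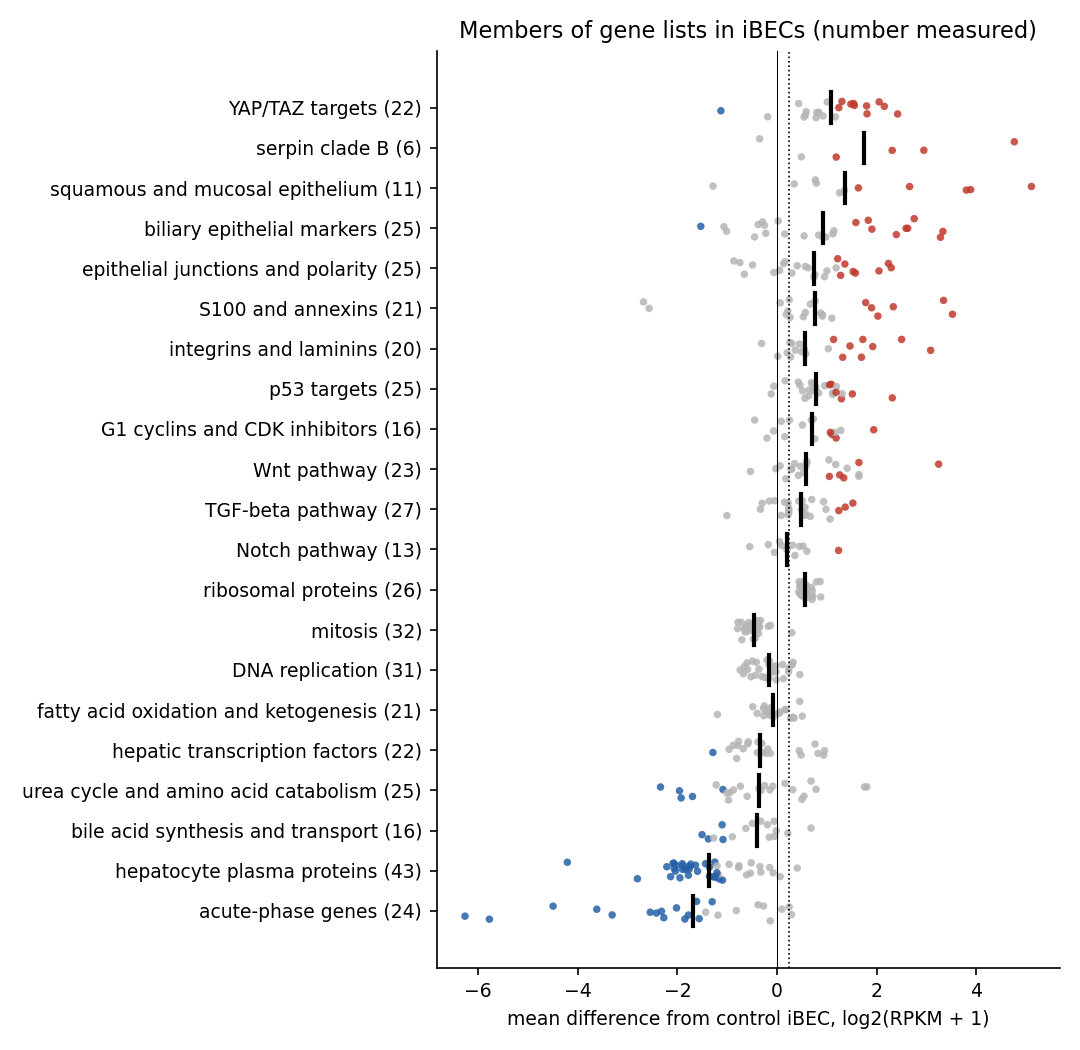
Mean log2(RPKM + 1) difference of the 2 L1L2_Alb libraries from the control for the measured members of 21 gene lists, 1 point per gene, red where higher and blue where lower in both libraries, with the list's median as a black bar. The dotted line is the median of all 13344 genes, 0.25; the YAP/TAZ targets lie mostly right of it and 29 of 43 plasma protein genes are blue.

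Targets of p53, the tumour suppressor that halts damaged cells, were above the control in both libraries for 23 of 25 measured. Their median was 0.78, or 0.58 after scaling, beside 0.25 and 0.0085 for all genes. Of all genes, 77.6% had the same direction in both libraries, and the share above the control in both is not given here. Of the 25 targets, 6 passed the threshold. *Perp*, a desmosomal protein, was at 17.6, 69.7 and 119.7 RPKM and the kinase *Plk2* at 18.1, 54.1 and 52.8 RPKM, and these remained after scaling. *Cdkn1a* (p21) was at 127, 281 and 297 RPKM, the p53 inhibitor *Mdm2* at 36.02, 75.1 and 80.5 RPKM and *Ccng1* at 42.5, 97.8 and 114 RPKM. Of the 16 G1 regulators, *Cdkn2a*, which encodes the cell cycle inhibitors p16 and p19ARF, was at 27.0, 76.9 and 146 RPKM and passed in both scalings, whereas *Myc*, at 18.7, 40.6 and 40.1 RPKM, and *Cdk6*, at 2.03, 5.24 and 5.77 RPKM, passed only as deposited. None of 32 mitosis genes passed, but 31 of them were below the control in both libraries, with a median of -0.47. *Ccnb1*, the mitotic cyclin, was at 22.2, 12.9 and 13.2 RPKM and *Top2a*, which untangles chromosomes, at 20.8, 14.0 and 13.3 RPKM. The 31 measured DNA replication genes had a median of -0.16 and none passed. *Rrm2*, which makes deoxynucleotides, differed between the L1L2_Alb libraries, at 96.2, 199.6 and 87.6 RPKM.

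The lower genes were led by liver secretory genes. *A2m*, a broad protease inhibitor, was at 2983, 107 and 239 RPKM, a difference of -4.21 ± 0.81 (SD, n = 2; limma adjusted p = 0.0516). *Mug1* and *Mug2*, the murinoglobulins of the same family, were at 20.9, 0.108 and 0.901 RPKM and 17.4, 0.085 and 0.434 RPKM, with limma differences of -3.92 (SE 0.43, adjusted p = 0.044) and -3.89 (SE 0.37, adjusted p = 0.0385). These genes and *Mug-ps1* are near-identical neighbours whose reads may be shared, so they are not separate measurements. Of 16 measured Mup genes, which encode the major urinary proteins and are nearly identical too, 14 were lower, and together they went from 789 RPKM to 78.3 and 152 RPKM. *Cyp2c70*, the enzyme that makes the mouse-specific muricholic bile acids, was at 131, 12.8 and 21.2 RPKM, and *Ugt2b37*, a glucuronosyltransferase, at 35.4, 0.864 and 4.58 RPKM. For each of the single genes given here, and for the Mup sum, library 1 was below library 2 and both were below the control. *Trat1*, a T cell receptor adaptor, was also among the 15 largest decreases, at 19.1, 0.113 and 1.78 RPKM.

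Of the 15 largest decreases, 11 had a promoter in the RefSeq table, and 3 of these held a core of the sites of the liver factors HNF1 (GTTAAT) or HNF4A (CAAAGTC), with both strands searched. The TEAD core, found in 14.7% of all promoters of the table, was also held by 3 of the 11. The promoters with a liver factor core are shown with the match in capitals, chosen because they held it. Their RefSeq regions (GRCm38.p6) are chr6:121838291-121838590, plus strand for *Mug1*, chr6:122006548-122006847, plus strand for *Mug2* and chr19:40187237-40187536, minus strand for *Cyp2c70*.
Mug1: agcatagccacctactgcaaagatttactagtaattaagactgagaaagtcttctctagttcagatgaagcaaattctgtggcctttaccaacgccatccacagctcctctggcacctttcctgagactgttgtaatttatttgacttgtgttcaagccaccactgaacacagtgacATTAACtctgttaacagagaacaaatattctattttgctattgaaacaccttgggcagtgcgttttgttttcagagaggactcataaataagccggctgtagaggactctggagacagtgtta
Mug2: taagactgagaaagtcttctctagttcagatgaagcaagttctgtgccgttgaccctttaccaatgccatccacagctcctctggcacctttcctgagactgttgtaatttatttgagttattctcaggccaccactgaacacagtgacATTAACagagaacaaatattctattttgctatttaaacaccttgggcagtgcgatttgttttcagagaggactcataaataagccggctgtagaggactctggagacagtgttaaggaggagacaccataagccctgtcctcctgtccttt
Cyp2c70: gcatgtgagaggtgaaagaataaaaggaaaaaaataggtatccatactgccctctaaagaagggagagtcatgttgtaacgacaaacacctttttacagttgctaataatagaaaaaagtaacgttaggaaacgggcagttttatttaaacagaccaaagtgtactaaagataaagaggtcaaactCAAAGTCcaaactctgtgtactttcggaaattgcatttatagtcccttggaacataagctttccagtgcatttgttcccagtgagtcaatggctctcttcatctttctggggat
The HNF1 core lay 73 and 101 bases before the start in *Mug1* and *Mug2*, and the HNF4A core 64 bases before it in *Cyp2c70*. These strings occurred in 7.10% and 4.44% of all promoters of the table, and binding was not measured. *Hnf4a* itself was at 99.5, 35.4 and 45.6 RPKM, 1 of 22 measured hepatic transcription factors lower in both libraries as deposited and of 3 after upper-quartile scaling, with 16 of the 22 below the control in both.

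Of 43 measured plasma protein genes 29 were lower (32 after scaling) and none higher, with a median of -1.36 and -1.63 after scaling. Their sum went from 152555 RPKM to 53747 and 69784 RPKM. *Hpx* was at 22015, 1974 and 5041 RPKM (-2.80 ± 0.96, SD, n = 2), the inter-alpha-trypsin inhibitor chain *Itih3* at 2372, 482 and 646 RPKM and the clotting factor gene *F9* at 27.5, 5.20 and 6.48 RPKM. The fibrinogen chains *Fgb* and *Fgg* were at 15089, 5018 and 6909 RPKM and 13002, 3449.6 and 4443 RPKM, and *Trf* was at 18663, 5061 and 7531 RPKM. Not every plasma protein took part. *Alb* was at 6162, 5499 and 3357 RPKM, and the apolipoprotein genes *Apoa1*, at 4404, 4170.1 and 2889 RPKM, and *Apoe*, at 7236, 8054 and 11408 RPKM, did not pass, *Apoe* being the most abundant gene of library 2.

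Of 24 acute-phase genes, which the liver secretes in inflammation, 15 were lower (17 after scaling) and none higher, with a median of -1.70, but the L1L2_Alb libraries differed widely. The serum amyloid genes *Saa1* and *Saa2* were at 2472, 5.92 and 295 RPKM and 1871, 2.03 and 195 RPKM, so that library 1 lay far below library 2, and both below the control. *Saa1* and *Saa2* are near-identical and their reads may be shared. *Saa3*, at 586, 192 and 1054 RPKM, was higher than the control in library 2. *Hp*, which binds free haemoglobin, was at 13682, 2824 and 5094 RPKM, and *Itih4* at 1574, 182 and 396 RPKM.

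Of 25 measured genes of the urea cycle and amino acid catabolism, 5 were lower and none higher, and 9 were lower after scaling. The urea cycle genes *Cps1*, *Ass1*, *Asl*, *Arg1* and *Slc25a15* did not pass as deposited. Their mean differences were 0.16, 0.68, -0.087, 0.54 and -0.74, while *Nags* was lower, at -1.09. The sum of the list was 1195, 1433 and 1100 RPKM. *Bhmt*, which remethylates homocysteine, was at 24.3, 3.88 and 4.13 RPKM (-2.34 ± 0.051, SD, n = 2), the serine dehydratase *Sds* at 13.2, 1.86 and 3.64 RPKM and the tryptophan dioxygenase *Tdo2* at 4.46, 0.473 and 0.925 RPKM. *Hpd*, an enzyme of tyrosine breakdown, was high in library 1 alone, at 0.0883, 8.84 and 0.462 RPKM. Of 16 measured bile acid genes 4 were lower (6 after scaling) and none higher, among them the bile acid uptake carrier *Slco1b2*, at 3.03, 0.457 and 0.649 RPKM, and the sterol exporter *Abcg8*, at 5.38, 0.961 and 1.57 RPKM. *Fbp1*, an enzyme of gluconeogenesis, was at 289, 33.3 and 92.9 RPKM and the desaturase *Scd1*, 1 of 2 lower genes (6 after scaling) among 27 of cholesterol and fatty acid synthesis, at 190.3, 72.5 and 84.0 RPKM. Xenobiotic enzymes went in both directions, with 4 of 22 higher and 1 lower, or 3 and 2 after scaling. *Aldh1a1*, which makes retinoic acid, was at 11.2, 117 and 135 RPKM (3.38 ± 0.15, SD, n = 2) and the glutathione transferase *Gsta4* at 12.1, 47.3 and 46.4 RPKM, while *Cyp3a11* was at 10.03, 2.92 and 1.84 RPKM.

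None of the 21 fatty acid oxidation, 18 glycolysis, 28 respiratory chain, 18 NRF2 target or 22 interferon-stimulated genes measured passed in both libraries. Their list medians were -0.077, 0.26, 0.24, 0.35 and 0.21 in that order, beside 0.25 for all genes. The antigen-presenting chain *B2m* was at 697, 694 and 696 RPKM, the glycolytic enzyme *Gapdh* at 5795, 6059 and 7574 RPKM and the ferritin light chain *Ftl1* at 1942, 3646 and 3306 RPKM. All 26 ribosomal protein genes were above the control in both libraries, none past the threshold, with a median of 0.56 that went to 0.29 after scaling. Of 24 stress response genes *Atf3*, at 2.28, 17.5 and 8.62 RPKM, and *Ddit3*, at 28.8, 71.6 and 91.1 RPKM, both induced by stressed cells, were higher and none was lower, while 2 others were lower after scaling. Of 13 iron genes 2 were higher and 4 lower, or 1 and 4 after scaling, with *Cp*, which oxidises iron for transport, at 733, 146 and 309.6 RPKM, and the duodenal iron reductase *Cybrd1*, at 0.324, 2.03 and 2.59 RPKM. Of 12 zinc genes 2 were higher (1 after scaling), *Slc39a8* among them, and 2 lower, the importer *Slc39a14*, at 130.5, 56.0 and 54.0 RPKM, and the metallothionein *Mt3*, at 487, 190.1 and 191 RPKM. Of the 12 measured fetal hepatoblast genes, 10 did not pass, with a list median of 0.23. *Bex1* was higher, at 20.5, 75.1 and 188 RPKM, and *Ahsg*, the fetal plasma protein fetuin, lower, at 7762, 2414 and 2581 RPKM. *Ahsg* is also counted among the plasma proteins. Of 12 measured genes of the insulin-like growth factor axis, *Igfbp2* was higher, at 0.0907, 3.76 and 1.20 RPKM, but not after scaling. *Igfbp3*, given above, was lower, and the other 10 did not pass.

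Markers of other cells were examined because the cultures can hold cells carried over from fetal liver. Of 11 measured granulocyte and mast cell genes 5 were lower, and their sum was 585 RPKM in the control, 64.0 in library 1 and 538 in library 2. *Mpo*, the neutrophil peroxidase, was at 92.2, 1.43 and 30.8 RPKM and *Elane*, neutrophil elastase, at 55.8, 0.546 and 24.4 RPKM. *Ngp*, a granule protein, was at 151, 4.83 and 195 RPKM, so that library 2 was above the control and library 1 far below it. Library 1 is thus the one with few granulocyte transcripts, and it is also the lowest for *Saa1*, *Saa2* and *S100a8*. The part of these cells in those values was not tested. Macrophage genes were mostly above the control, with 14 of 19 above the control in both and 3 past the threshold (2 after scaling), and their sum went from 2695 to 4757 and 5839 RPKM. The median of all genes was also above the control, by 0.25. The lysozyme gene *Lyz2* was at 838, 2019 and 2178 RPKM and the macrophage receptor *Vsig4* at 4.39, 17.3 and 16.4 RPKM. *Marco*, a scavenger receptor, was at 25.4, 24.0 and 406 RPKM, high in library 2 only.

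Mesenchymal genes separated the L1L2_Alb libraries, with a summed 8397 RPKM in the control, 9124 in library 1 and 6287 in library 2. The fibroblast proteoglycan *Lum* was at 52.3, 259 and 39.8 RPKM and *Dcn* at 115, 309 and 71.4 RPKM, and *Col1a1*, the main fibrillar collagen, at 1099.9, 1130.1 and 606 RPKM. Of 31 measured, 2 were lower and none higher, namely *Fn1*, a matrix protein that hepatocytes also secrete, at 3113, 1373 and 1489 RPKM, and the stellate cell enzyme *Lrat*, at 4.02, 0.679 and 1.46 RPKM. Mesothelial markers had 3 of 6 higher, *Msln* at 103, 1032 and 2059 RPKM, *Upk1b* at 2.08, 9.44 and 13.7 RPKM and *Upk3b* at 0.177, 3.53 and 3.05 RPKM, while *Wt1*, the defining mesothelial transcription factor, was at 5.99, 18.8 and 9.67 RPKM and did not pass. The 4 measured endothelial genes and the 8 erythroid and megakaryocyte genes had none past the threshold. The megakaryocyte chemokine *Pf4* was at 46.6, 51.3 and 188 RPKM, high in library 2 only.

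**Figure D4:**
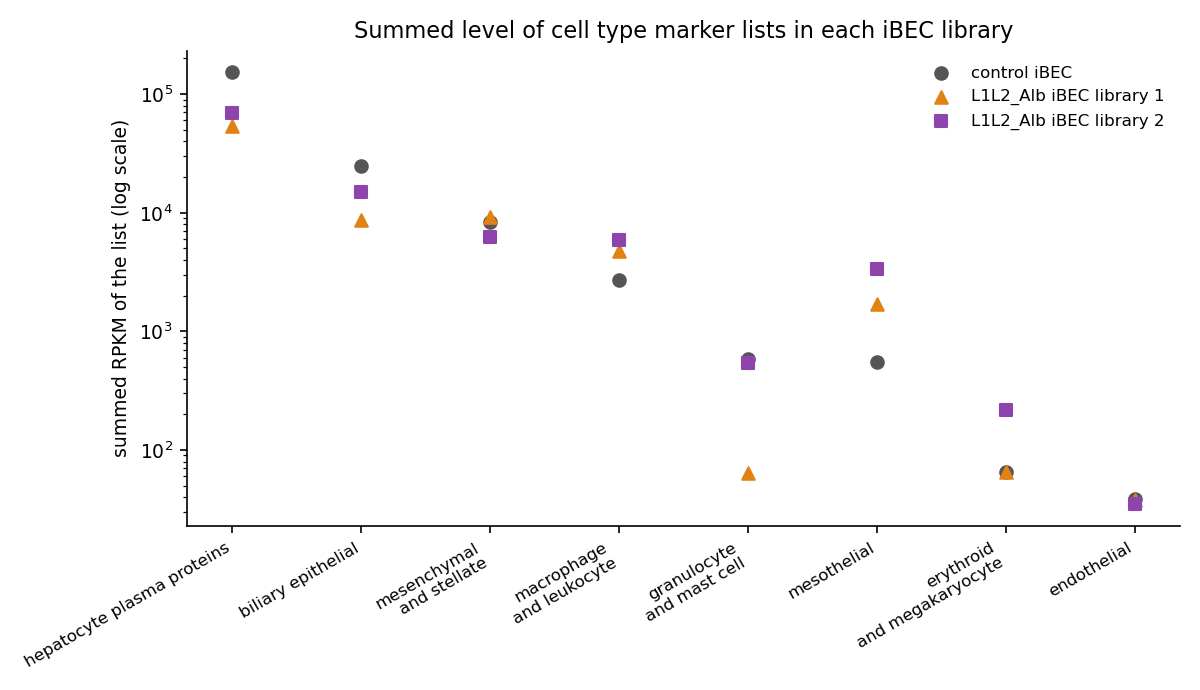
Summed RPKM (log axis) of 8 marker lists in the control iBEC library (circles) and L1L2_Alb libraries 1 (triangles) and 2 (squares). The granulocyte sum of library 1, 64.0 RPKM, lies far below those of the other libraries, and the plasma protein sum is highest in the control.

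The same genotypes were set against their own controls in the other cultures. Of the 582 genes higher in iBECs, 250 (43.0%) were also higher in both L1L2_Alb iHP libraries, which is 40.8% of the 613 genes (4.59% of those measured) higher there, and 272 (46.7%) in the L1L2_Alb iHB library, 37.7% of 722 (5.41%). The other 269 (46.2%) were higher past the threshold in neither culture. Of the 229 lower genes, 138 (60.3%) were lower in both iHP libraries, 13.3% of 1035 (7.76%), and 127 (55.5%) in the iHB library, 11.1% of 1147 (8.60%), with 71 (31.0%) lower in neither. Of the higher genes, 20 (3.44%) were lower in both iHP libraries and 39 (6.70%) in the iHB library, beside 7.76% and 8.60% of all genes. Of the lower genes none was higher in both iHP libraries and 1 was higher in the iHB library, beside 4.59% and 5.41% of all genes. The limma test of the difference between the cultures called 0 genes, with 998 at an unadjusted p under 0.05 and a smallest adjusted p of 0.0844, and a change past the threshold in one culture only is therefore not shown to differ from the other.

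The median difference of the YAP/TAZ targets was 1.16 in iHPs and 0.74 in iHBs, beside 1.09 in iBECs. The cultures differed in the median of all genes, which was 0.25 in iBECs, 0.011 and -0.029 in iHP libraries 1 and 2 and -0.086 in iHBs. That of the plasma proteins was -2.33 and -2.80, and that of the mitosis genes -1.52 and -1.13, both below their iBEC values of -1.36 and -0.47. The biliary markers had medians of -0.20 in iHPs and -1.31 in iHBs, and of 0.92 in iBECs. These differences between cultures were not tested as lists.

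*Serpinb9b* was higher in both cultures, at 65.2, 950.5 and 921 RPKM in the iHP control and L1L2_Alb libraries 1 and 2. The values of several junction genes ran in opposite directions. *Cgn* was at 614, 105 and 84.4 RPKM in iHPs, so that its level in the iHP control was far above all iBEC libraries, and its interaction was 4.93 (SE 0.50, adjusted p = 0.0844) by limma. *Cldn7* was at 21.5, 6.30 and 9.49 RPKM in iHPs. *Sftpd*, a lectin of mucosal surfaces, was at 0.25, 4.95 and 6.14 RPKM in iBECs and 17.5, 1.19 and 1.38 RPKM in iHPs, and *Prap1*, with an interaction of 5.28 (SE 0.52, adjusted p = 0.0844), was at 0.459, 0.0872 and 0 RPKM in iHPs. *Fgfbp1* and *Psca*, near 0 in the iBEC control, were already at 47.6, 65.1 and 74.6 RPKM and 88.7, 182 and 107 RPKM in iHPs. Among the lower genes, *Saa2* had the most negative interaction, -5.17 (SE 2.79, adjusted p = 0.806), with 2.34, 0.445 and 0.692 RPKM in iHPs, so that its iHP control was itself low. *Reg3g*, an antibacterial lectin, was at 30.9, 0.2 and 7.80 RPKM in iBECs and listed at 0 in all iHP libraries. *Hnf4a*, at 64.4, 23.7 and 22.4 RPKM in iHPs, was lower in both cultures.

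**Figure D5:**
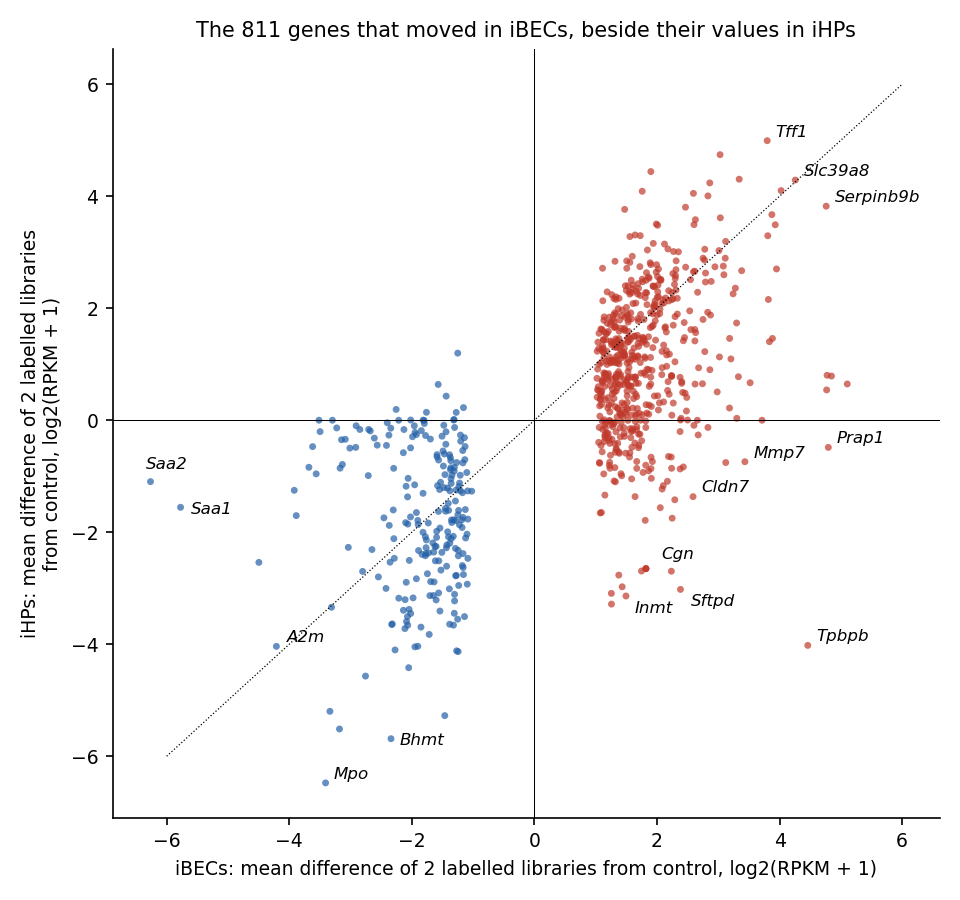
The 811 genes called in iBECs by their mean log2(RPKM + 1) difference between the L1L2_Alb and control libraries in iBECs (horizontal) and iHPs (vertical), red where higher and blue where lower in iBECs; the dotted line marks equal differences. Most lower genes are also below 0 in iHPs, and *Cgn*, *Cldn7*, *Sftpd*, *Inmt* and *Tpbpb* lie at lower right.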

How the data were processed

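The mRNA of 8 libraries (TruSeq RNA v2, HiSeq 2000) was measured by sequencing. The authors deposited 1 table of RPKM values per gene and library. RPKM, not FPKM, was inferred from the steps of short RNA genes. The submitters' processing notes name Bowtie 0.12.2 and mm8, and the counting tool and annotation are not given in the sources used here. Of 23471 entries, 4 of 2 repeated symbols were left out. Reads were recovered as whole numbers for 16096 of 20025 genes (80.4%, tolerance 0.01), giving 18436865 to 33229075 reads per library, and served only for depth and the floor of 3 reads, which cover counting error only. No count test was run.

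Differences were taken on log2(RPKM + 1), which understates the change of low genes, and genes averaging under 1 RPKM in the 3 iBEC libraries were left out. Both L1L2_Alb libraries had to pass 1 in the same direction. limma 3.58.1 (R 4.3.3) with Benjamini-Hochberg adjustment, tested on simulated data, was fitted to 8 libraries in 6 conditions. Its p-values measure only the spread between these libraries, which may be technical. Other steps used Python 3.11.15, numpy 2.4.6 and pandas 2.3.3. Members, 44 gene lists and promoter motifs were chosen with earlier results of these data known. Named genes were study genes, the 15 largest differences each way, up to 4 members of each list, the 10 most abundant of each library, the limma calls and the 5 largest interactions each way. Genes outside this rule, chosen after their values were seen, were *Amotl2*, *Nt5e*, *Muc1*, *St14*, *Sox4*, *Grhl2*, *Esrp1*, *Cldn1*, *Cldn2*, *Ly6d*, *S100a6*, *S100a8*, *Nkd1*, *Tgfbr1*, *Mdm2*, *Saa3*, *Hpd*, *Cps1*, *Ass1*, *Asl*, *Arg1*, *Slc25a15*, *Nags*, *Ngp*, *Marco*, *Lum*, *Dcn*, *Col1a1* and *Wt1*. Some genes are not reported here. Alternatives were other scalings, pseudocounts, filters and left-out libraries.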

Additional observations from a re-analysis of the deposited data

Results flagged for a closer look

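Of the 582 genes higher in iBECs, 20 (3.44%) were at least 1 below the control on the log2(RPKM + 1) scale in both L1L2_Alb iHP libraries. Of all 13344 genes measured, 7.76% were lower there, so this direction was no more common among the higher genes. Of the 20 genes, 8 are named. For the 8 named genes the mean differences in iBECs and iHPs were 2.23 and -2.70 for *Cgn*, 2.29 and -1.42 for *Cldn6*, 2.59 and -1.36 for *Cldn7*, 1.49 and -3.14 for *Inmt*, 2.38 and -3.02 for *Sftpd*, 1.75 and -2.69 for *Slc2a2*, 1.07 and -1.66 for *Slc39a5* and 4.46 and -4.02 for *Tpbpb*. *Slc2a2* and *Slc39a5* were no longer called higher in iBECs after upper-quartile scaling. The limma interaction was 4.93 (SE 0.50, adjusted p = 0.0844) for *Cgn*, 5.40 (SE 0.52, adjusted p = 0.0844) for *Sftpd* and 8.48 (SE 2.60, adjusted p = 0.445) for *Tpbpb*. It called 0 of 13344 genes, so the difference between the cultures passed the threshold for none of them. *Tpbpb*, a placental gene, rests on library 1, with 1.27, 346 and 6.20 RPKM in iBECs.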

How the results depend on the processing

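The split of the called genes depended on the scaling. Of 811 genes, 582 were higher and 229 lower as deposited. Upper-quartile scaling gave 358 lower and median-of-ratios scaling 364, with 387 higher, and quantile normalization gave 382 higher, for shares of higher genes of 52.5%, 51.5% and 52.98% against 71.8%. At a difference of 2, 139 genes passed, 106 higher and 33 lower. With either L1L2_Alb library left out, 1338 to 1599 genes passed, 1009 to 1154 higher and 329 to 445 lower, because a single library then had to pass. limma called 11 genes, 3 after upper-quartile scaling, 33 after quantile normalization, 70 with a pseudocount of 0.1, 0 without a filter and 45 at a mean of at least 5 RPKM, and 0 to 81 with a library left out. It called 9 without L1L2_Alb iBEC library 1, 81 without library 2 and 0 without either L1L2_Alb iHP library. The interaction called 0 genes and 0 to 7 with a library left out. The causes were not tested. The granulocyte median was -1.84 with both libraries and 0.18 without library 1, or -2.85 without library 2. None of the 140 named genes called as deposited changed sign under these alternatives, and 21 of 64 not called did (*Yap1* and *Hes1* among them). The calling rule largely fixed this in advance. A called gene differed by at least 1 in both libraries, so leaving 1 out could not change its sign. Upper-quartile scaling moved the median gene only from 0.25 to 0.0085. Over all named genes, 768 differences stayed within the replicate spread of the value as deposited and 252 did not. With 1 of the 2 L1L2_Alb iBEC libraries left out, a difference always stays within that spread. Those comparisons are part of the 768 by construction and are no check of stability. With the replicate number as a block, limma called 217 genes and the interaction 32. Same-numbered iBEC and iHP libraries did not deviate together (r = -0.023 over 13344 genes). As the cultures differ, this cannot show whether such libraries share an embryo or preparation. Depth limits genes near 3 reads.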
